A study of Homo sapiens with 28 samples.

Results

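The 55 genes described make and mature the ribosome in the nucleolus, apart from MYC, a transcription factor known to drive many of the others. They were chosen by symbol: a gene was included when its symbol in the deposited count tables was on a list of 55 names, and all 55 were found among 25369 genes. All 55 also had enough counts to be tested, as did 14314 genes in all. By role, 7 act in transcription by RNA polymerase I, 7 belong to small nucleolar ribonucleoproteins (snoRNPs), 18 act on the small and 18 on the large ribosomal subunit, 4 are nucleolar proteins with several functions, and the last is MYC.

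Strand-specific libraries were made from total RNA of LNCaP, an established human prostate cancer cell line with luminal features. Of 28 libraries, 4 fell into each of 7 groups, and the series' design text describes 4 independent experiments. Control siRNA was given to 3 groups, which received the solvent (DMSO siCtrl), tunicamycin (TM siCtrl) or tunicamycin with the PERK inhibitor GSK2606414 (TM PERKi siCtrl). Cells of the other 4 groups received tunicamycin and an siRNA against 1 target: PERK in TM siPERK-1 and in TM siPERK-3, ATF4 in TM siATF4-2 and in TM siATF4-3. Tunicamycin was used at 2.5 ug/mL, the inhibitor at 100 nM, and the labels give 2 days for the transfection and 18 h for the treatment. DMSO siCtrl was the single group without tunicamycin, no group combined an siRNA against PERK or ATF4 with DMSO, and all groups were transfected. Tunicamycin blocks N-glycosylation and so fills the endoplasmic reticulum with unfolded protein. The kinase PERK, the product of EIF2AK3, senses this stress, and ATF4 is a transcription factor whose translation rises when PERK acts.

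Ribosome production starts in the nucleolus, where RNA polymerase I copies the ribosomal DNA into a long precursor. SnoRNPs modify the precursor RNA, and large assemblies of processing factors, helicases and GTPases cut and fold it into the small and the large subunit. The pathway uses much of the energy of a growing cell, is tied to growth control through MYC, and is enlarged in many cancers, prostate cancer included.

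Library totals ran from 10794637 to 17253801 counts, and the 55 genes took 0.650% to 1.07% of a library. The targeted genes followed the labels. EIF2AK3 was at 19.7 to 30.5 CPM (counts-per-million, scaled by the trimmed mean of M-values, TMM) in the PERK siRNA groups. Its TM siCtrl values were 80.0 to 95.2, and the solvent libraries had 29.2 to 30.9. ATF4 was at 98.5 to 358 in the ATF4 siRNA groups against 1479 to 1562, and the solvent libraries had 540 to 723. Thus the PERK siRNAs left EIF2AK3 near or below its solvent level, while the ATF4 siRNAs took ATF4 well below its own. The ATF4 transcript stayed high elsewhere: siPERK-1 libraries had 1363 to 1461 CPM, siPERK-3 libraries 1111 to 1198 and inhibitor libraries 1344 to 1471. Replicate 4 of TM siATF4-2 stood apart with 358 CPM of ATF4, where the other 3 libraries of its group had 177 to 221. All 9 luminal prostate markers averaged above 1 CPM in every group, and their sum was 6170 to 7260 CPM with the solvent, 3350 to 3670 with tunicamycin and control siRNA, 2690 to 3010 with the inhibitor, 3200 to 3690 with siRNA against PERK and 3920 to 4520 with siRNA against ATF4. They did not move together: in TM siCtrl against DMSO siCtrl, 6 fell and 3 rose (34.7% and 34.3% of all genes tested). KLK3 averaged 2640 and then 431 CPM, while FOLH1 (510 and 570), KRT8 (405 and 862) and KRT18 (385 and 805) were the 3 that rose. The summed leukocyte markers never passed 0.655 CPM. The 4 basal epithelial markers summed to 0.871 to 4.95 CPM. Among them ITGB4 averaged 1.16 to 3.14 CPM over the groups and KRT14 1.29 in DMSO siCtrl. Only 2 basal markers could be tested, and both fell in TM siCtrl against DMSO siCtrl. Of 5 fibroblast markers 1, COL1A1, averaged above 1 CPM; their sum was 17.8 to 21.8 CPM in DMSO siCtrl, 33.0 to 39.6 in TM siCtrl and 14.3 to 23.2 in the ATF4 siRNA groups, with COL1A2 at 0 in every library. The part of the luminal, basal and fibroblast markers in the results was not tested.

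Tunicamycin lowered most of these genes. Of the 55, 48 fell and 3 rose in TM siCtrl against DMSO siCtrl (edgeR quasi-likelihood test, adjusted p under 0.05), where 34.7% of all genes tested fell and 34.3% rose. Their median log2 change was -0.58, against 0.01 over all genes tested, and 7 fell by 2-fold or more. Summed over the 55, the level went from 8570 to 8984 CPM in the DMSO siCtrl libraries to 6605 to 6922 in the TM siCtrl libraries. CPM is a share of a library, and in these bulk samples fewer cells carrying these transcripts cannot be told apart from less of them per cell. The heat map of all 28 libraries shows the fall in each role group and its few exceptions.

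**Figure D1:**
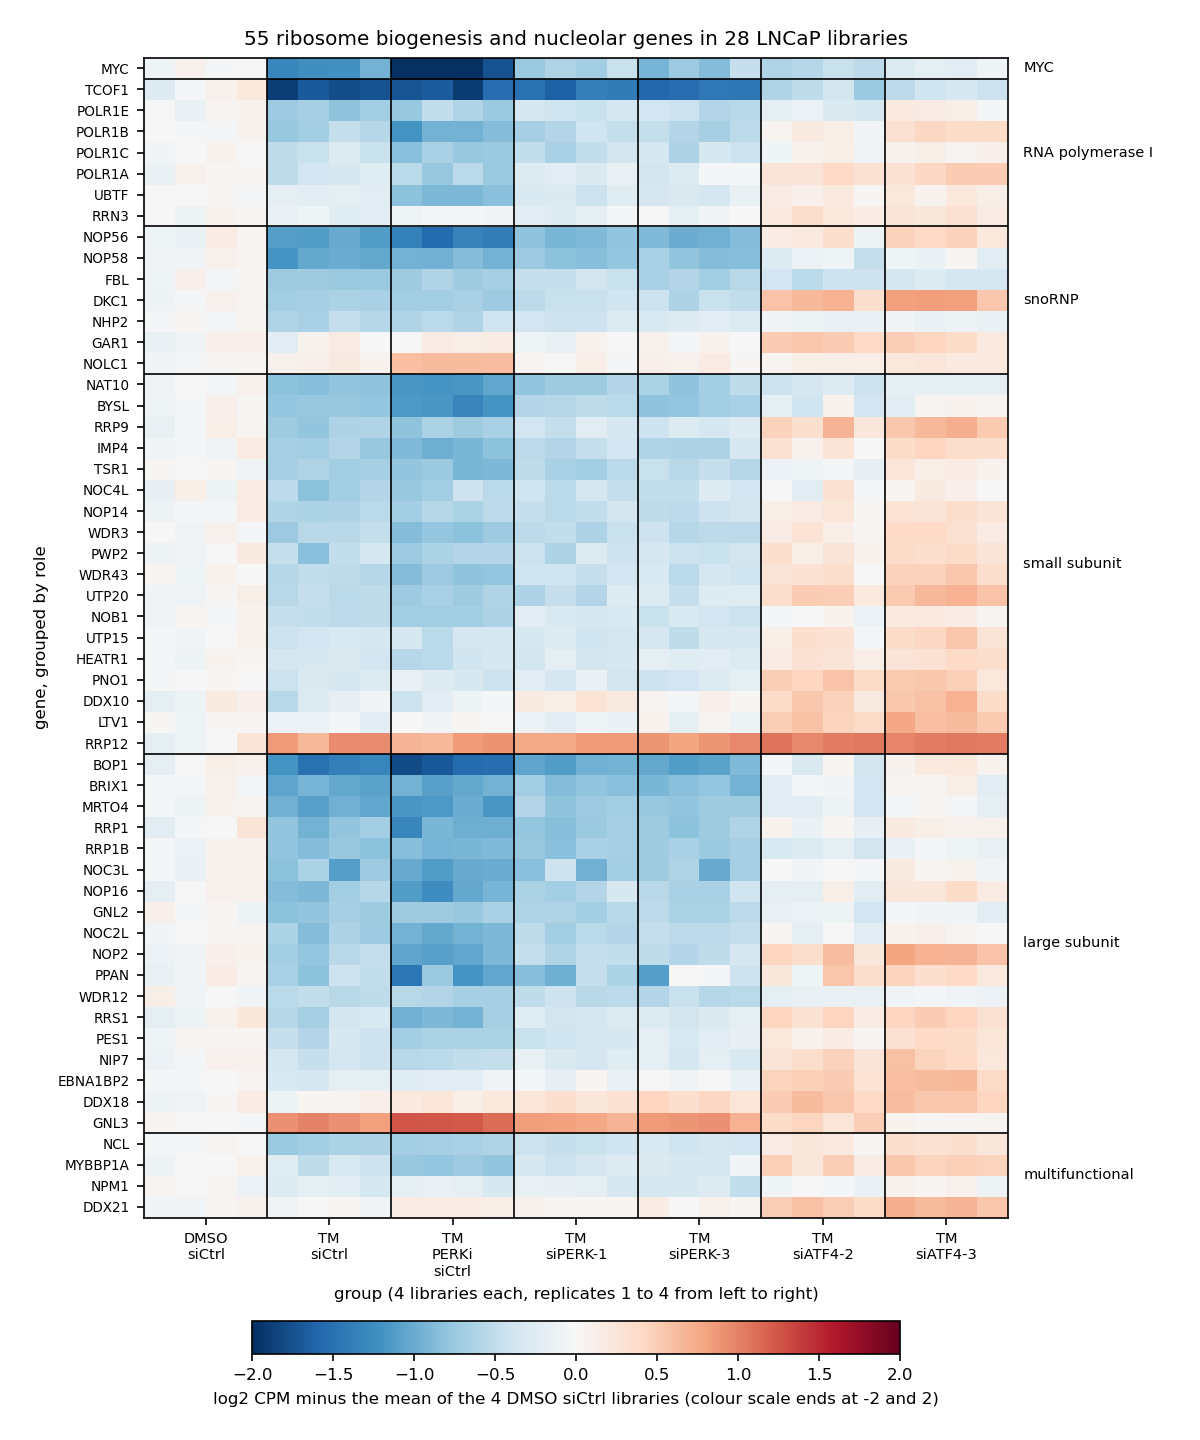
Log2 CPM of each of the 55 genes (rows, grouped by role and ordered by the tunicamycin effect) in each of the 28 libraries (columns, 4 per group), minus the mean of the 4 DMSO siCtrl libraries; blue is lower and red higher. Most rows are blue in the TM siCtrl, TM PERKi siCtrl and PERK siRNA columns and near white or red in the ATF4 siRNA columns, while GNL3 and RRP12 are red in TM siCtrl.

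All 7 genes of RNA polymerase I transcription fell, with a median log2 change of -0.42. TCOF1 encodes treacle, a nucleolar protein needed for transcription of ribosomal DNA, and lies on chromosome 5 (149737202 to 149779871, hg19, plus strand). It stood at 69.5, 80.7, 88.0 and 95.6 CPM in the DMSO siCtrl libraries and at 22.5, 25.8, 24.1 and 24.8 in the TM siCtrl libraries. The groups were far apart, and the 3.43-fold drop (log2 -1.78 ± 0.08 SE, adjusted p = 4.24e-20) was the largest of the 55. POLR1E, a subunit of the polymerase, had 55.8, 51.3, 58.1 and 59.1 CPM without and 34.0, 35.3, 32.0 and 34.5 with tunicamycin. For POLR1B, the second-largest subunit, the values were 47.6, 47.5, 46.8 and 50.4 against 28.4, 30.0, 34.6 and 32.2. Neither gene's groups overlapped, and their log2 changes were -0.72 ± 0.06 and -0.62 ± 0.07. The smaller decreases belonged to POLR1C (log2 -0.42), POLR1A (-0.37), the ribosomal DNA binding factor UBTF (-0.20) and the initiation factor RRN3 (-0.17).

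Of the 7 snoRNP genes, 5 fell, 1 rose and GAR1 was not called (log2 0.00). NOP56 and NOP58 form the core of box C/D snoRNPs, which guide 2′-O-methylation of ribosomal RNA. NOP56 (chromosome 20, 2633178 to 2639039, hg19, plus strand) was at 244, 238, 290 and 270 CPM in DMSO siCtrl and at 122, 120, 129 and 120 in TM siCtrl. NOP58 went from 116, 117, 130 and 124 CPM to 53.6, 60.0, 61.3 and 59.9. Both dropped by more than 2-fold without overlap (log2 -1.09 ± 0.07, adjusted p = 2.00e-15, and -1.05 ± 0.06, adjusted p = 9.92e-18). FBL, the methyltransferase of the same particles, had 263, 298, 273 and 282 CPM in DMSO siCtrl and 170, 171, 167 and 167 in TM siCtrl, a log2 change of -0.73 ± 0.04. In the box H/ACA particles, which carry out pseudouridylation, the enzyme gene DKC1 fell by 0.66 and the core protein gene NHP2 by 0.58 on the log2 scale. NOLC1, a chaperone of snoRNPs, was the exception at 388, 393, 408 and 418 CPM without and 428, 429, 453 and 423 with tunicamycin. Its rise was 0.11 ± 0.04 (adjusted p = 0.0166), was lost without replicate 1 of DMSO siCtrl (adjusted p = 0.0629) or replicate 3 of TM siCtrl (adjusted p = 0.0716), and turned to -0.03 with plain library totals as scale.

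Among the 18 small subunit genes, 16 fell and 1 rose. NAT10, an acetyltransferase acting on 18S ribosomal RNA, had 106, 112, 109 and 119 CPM in DMSO siCtrl and 62.6, 61.5, 64.0 and 63.6 in TM siCtrl (log2 -0.82 ± 0.05, adjusted p = 2.48e-17). BYSL, an assembly factor of the late nuclear small subunit, had 26.4, 27.1, 30.0 and 28.3 CPM against 16.2, 16.6, 16.6 and 16.3 (log2 -0.76 ± 0.08). Neither gene's groups overlapped, and the 4 tunicamycin libraries lay closer together than the solvent ones. RRP12, an export factor of the small subunit precursor (chromosome 10, 99116458 to 99161127, hg19, minus strand), went the other way. Its values were 46.8, 50.4, 53.6 and 63.7 CPM in DMSO siCtrl and 96.5, 84.2, 103 and 103 in TM siCtrl, a rise of 0.85 ± 0.07 on the log2 scale (adjusted p = 1.01e-13). The other decreases ran from -0.69 for RRP9, a protein of the U3 snoRNP, to -0.26 for the helicase DDX10. They took in the processome genes UTP15, UTP20, WDR3, WDR43, HEATR1, PWP2, NOC4L, NOP14 and IMP4 and the late factors NOB1, PNO1 and TSR1. LTV1, a late factor of the small subunit, was not called (log2 -0.12).

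The 18 large subunit genes likewise held 16 decreases and 1 rise. BOP1, which with PES1 and WDR12 forms a complex that processes the large subunit RNAs, had 74.6, 84.5, 92.3 and 90.2 CPM in DMSO siCtrl and 37.1, 30.2, 33.0 and 34.5 in TM siCtrl (log2 -1.34 ± 0.08, adjusted p = 1.72e-16). Its partners fell less, by 0.44 for PES1 and 0.52 for WDR12. BRIX1 went from 78.3, 77.5, 84.3 and 78.1 CPM to 38.2, 42.0, 39.2 and 37.7, and MRTO4 from 38.5, 36.9, 41.6 and 41.2 to 20.4, 18.6, 20.3 and 19.3. Both of these assembly factors lost about as much (log2 -1.02 ± 0.07 and -1.01 ± 0.07), again without overlap. GNL3 encodes nucleostemin, a nucleolar GTPase abundant in stem and tumour cells (chromosome 3, 52719936 to 52728510, hg19, plus strand). It had 378, 365, 361 and 353 CPM in DMSO siCtrl and 686, 727, 690 and 640 in TM siCtrl. The groups were widely separated, with a rise of 0.91 ± 0.05 (1.88-fold, adjusted p = 1.13e-19), the largest increase of the 55. The helicase DDX18 was not called (log2 0.02), and the other 13 genes fell by 0.25 (EBNA1BP2) to 0.81 (RRP1 and RRP1B).

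Of the 4 proteins with several functions, nucleolin fell most. NCL had 1453, 1447, 1537 and 1472 CPM in DMSO siCtrl and 886, 919, 956 and 964 in TM siCtrl (log2 -0.67 ± 0.04, adjusted p = 6.78e-18). MYBBP1A, which binds MYB and the polymerase I machinery, had 92.4, 99.8, 100 and 106 CPM against 84.5, 69.9, 80.2 and 74.6 (log2 -0.37 ± 0.07). NPM1, nucleophosmin, had 1751, 1690, 1739 and 1543 CPM against 1397, 1481, 1452 and 1316 (log2 -0.25 ± 0.05). Groups of all 3 were separate, although the lowest DMSO siCtrl value of NPM1 lay close to the highest TM siCtrl value. The helicase DDX21 was not called (log2 -0.02). MYC itself was at 302, 339, 315 and 322 CPM in DMSO siCtrl and at 130, 136, 138 and 166 in TM siCtrl, a 2.25-fold drop (log2 -1.17 ± 0.11, adjusted p = 1.32e-09).

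Other biogenesis genes mostly fell too, whereas more ribosomal protein genes rose than fell. Of 119 other ribosome biogenesis genes, 87 fell and 11 rose, with a median log2 change of -0.32. EXOSC2, a subunit of the RNA exosome, changed by -1.26 and LAS1L, which cuts a spacer of the precursor RNA, by -1.09, while the exosome subunit EXOSC1 changed by 0.88. Of 77 tested genes for cytosolic ribosomal proteins, 41 rose, RPL10 (0.49) and FAU (0.42) the most among them, and 4 fell, with a median of 0.11. These genes have many processed copies in the genome, as has NPM1, and how reads that fit several places were counted is not given in the sources used here. Of 11 tested partners and antagonists of MYC, 5 rose and 2 fell. Over all genes tested 34.3% rose and 34.7% fell in this comparison. The MAX-binding repressor MXD1 rose by 0.63 and its relative MXD3 changed by -1.05. The box plot of the lists places the 55 genes below the other biogenesis genes and both below the ribosomal proteins.

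**Figure D2:**
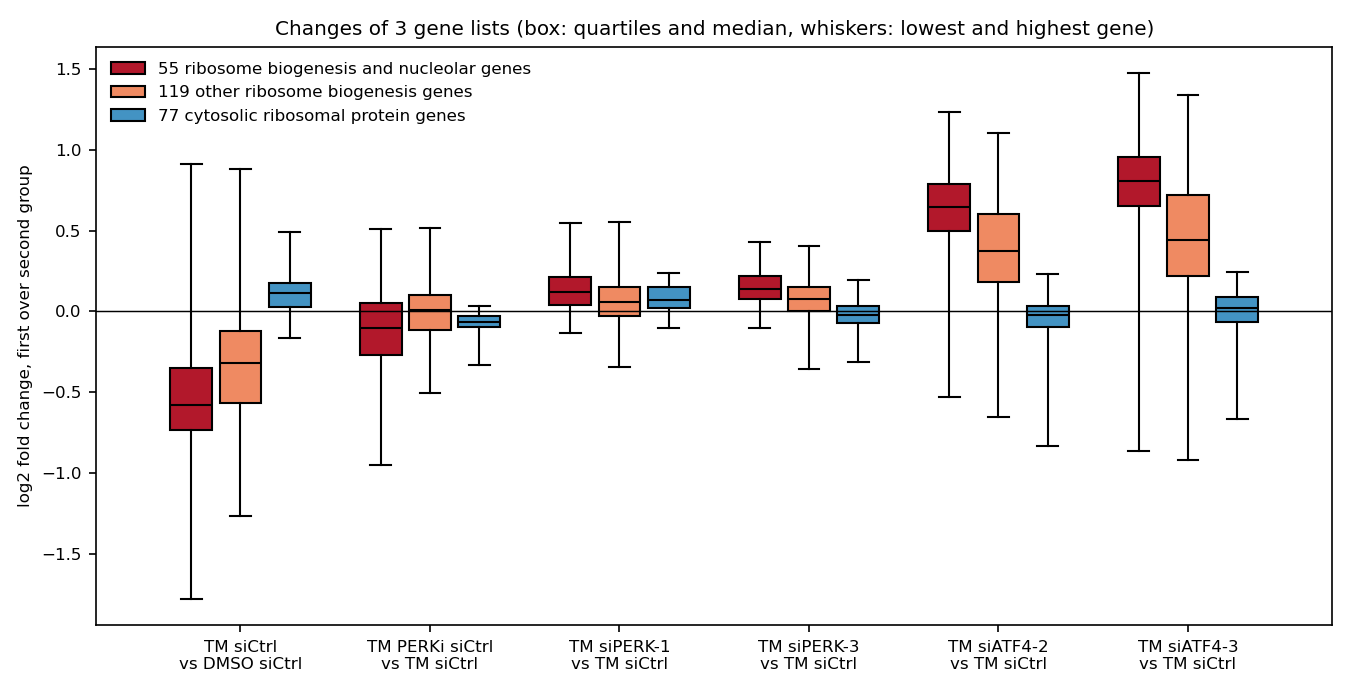
Log2 fold change (y axis) of 3 gene lists in 6 comparisons (x axis); boxes give the quartiles and the median over genes, and whiskers the lowest and highest gene. In the tunicamycin comparison the medians were -0.58 for the 55 genes, -0.32 for 119 other ribosome biogenesis genes and 0.11 for 77 ribosomal protein genes, and with siATF4-3 they were 0.81, 0.44 and 0.02.

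The gene starts of many of these genes share an E-box, the letters CACGTG, which dimers of MYC and MAX are known to bind. RefSeq promoter windows of build GRCh38.p14 (250 bases before the start and 50 after it) were found by symbol for 45 of the 55 genes. An E-box was present in windows of 21 of these 45 genes (46.7%), against 12.5% of the 10281 genes tested that have windows, 24.8% of 105 other biogenesis genes and 6.35% of 63 ribosomal protein genes. Since CACGTG reads the same on both strands, 1 search covers both. The positions differed. In 18 genes (40.0%) an E-box reached the start base or lay within the 50 bases after it. The share was 12.4% in the other biogenesis genes and 1.82% in the genes tested. Entirely before the start, 5 genes (11.1%) held one, against 15.2% of the other biogenesis genes and 11.2% of the genes tested. The letters TGATGNAA on either strand, a form of the element bound by C/EBP and ATF4 dimers, were in windows of 0 of the 45 genes and of 2.84% of the genes tested. The motifs do not overlap, a match describes letters and not binding, and sequences that are absent from the windows may lie elsewhere.

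**Figure D3:**
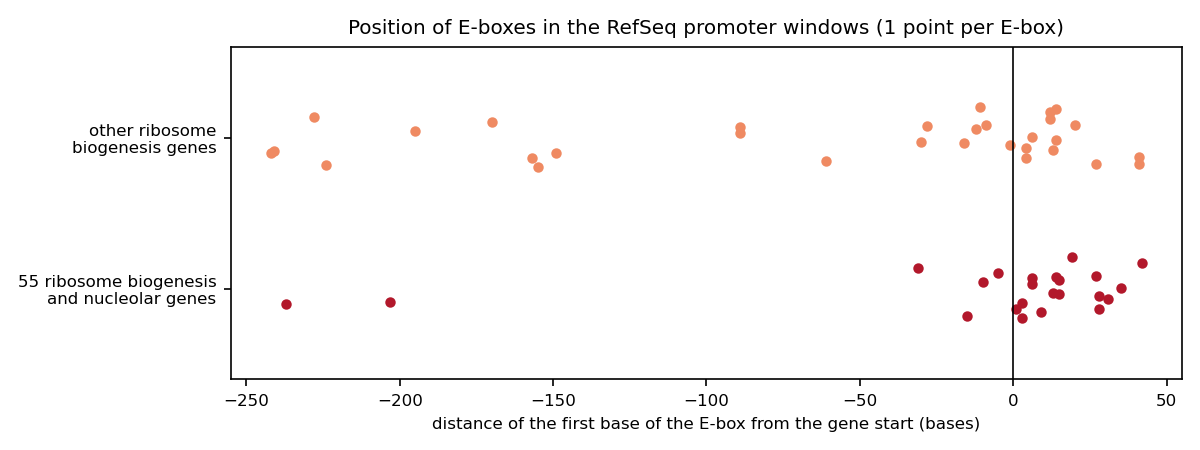
Distance in bases of the first base of each E-box from the gene start (x axis; 0 is the start base, negative values lie before it), with 1 point per E-box for the 55 genes (lower row) and the other ribosome biogenesis genes (upper row). Of the 55 genes, 18 have an E-box that reaches the start or lies after it, and only a few points lie far before it.

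The E-boxes of the genes named for their changes are shown because genes of different roles carry the same letters near the start. The capitals mark the E-box, and each line runs 5′ to 3′ on the gene's strand. The first 8 lines give up to 30 bases around it, and the last 2, where it lies wholly before the start, the 250 bases before the start. They belong to the RNA methyltransferase gene FBL (chr19:39846356-39846385, minus strand), the H/ACA protein gene GAR1 (chr4:109815781-109815810, plus strand), the U3 protein gene RRP9 (chr3:51941892-51941921, minus strand) and BYSL (chr6:41921515-41921544, plus strand). Next come GNL3 (chr3:52686026-52686055, plus strand), MRTO4 (chr1:19251807-19251836, plus strand), the large subunit RNA methyltransferase gene NOP2 (chr12:6568242-6568268, minus strand) and MYBBP1A (chr17:4555340-4555369, minus strand). The upstream pair are NAT10 (chr11:34105379-34105628, plus strand) and DDX21 (chr10:68956397-68956646, plus strand).
FBL: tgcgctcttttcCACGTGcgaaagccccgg
GAR1: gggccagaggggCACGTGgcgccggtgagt
RRP9: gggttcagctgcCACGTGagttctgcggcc
BYSL: ttcttcagtcccCACGTGcgatccttcccg
GNL3: ggcttcagttcaCACGTGgcgccagcggag
MRTO4: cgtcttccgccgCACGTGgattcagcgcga
NOP2: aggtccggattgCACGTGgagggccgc
MYBBP1A: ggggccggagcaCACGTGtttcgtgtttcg
NAT10: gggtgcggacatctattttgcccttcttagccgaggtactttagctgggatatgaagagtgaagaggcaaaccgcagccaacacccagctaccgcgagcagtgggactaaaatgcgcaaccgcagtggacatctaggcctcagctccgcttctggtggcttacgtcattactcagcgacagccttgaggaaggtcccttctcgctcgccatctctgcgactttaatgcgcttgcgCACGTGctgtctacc
DDX21: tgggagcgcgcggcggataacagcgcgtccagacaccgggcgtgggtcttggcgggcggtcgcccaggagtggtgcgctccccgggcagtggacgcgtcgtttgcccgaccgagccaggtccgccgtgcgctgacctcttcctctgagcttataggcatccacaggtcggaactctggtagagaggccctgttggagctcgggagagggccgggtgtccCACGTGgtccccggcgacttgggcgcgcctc
Most genes with an E-box fell with tunicamycin, and so did most of those with windows but without one. GNL3, which rose, was an exception, and like FBL, which fell, it has the E-box 6 bases after the start base. The part of the E-box in the changes was not tested. The 21 genes with an E-box had a median log2 change with tunicamycin of -0.54 and the 24 with windows but without one -0.58. With siATF4-3 the medians were 0.82 and 0.80.

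With either siRNA against ATF4, nearly all of the 55 genes stood higher than with tunicamycin and the control siRNA. In TM siATF4-2, 53 rose and 1 fell against TM siCtrl, where 28.4% of all genes tested rose and 27.2% fell. In TM siATF4-3, 54 rose and 1 fell, against 31.2% and 30.7%. The median log2 changes were 0.65 and 0.81, against 0.00 over all genes tested, and 6 and 9 genes rose by 2-fold or more. The comparisons share their TM siCtrl libraries with each other and with the tunicamycin comparison, so high or low values there move all of them. The luminal markers moved as well, 6 and 7 of 9 rising and 1 falling against TM siCtrl, and their part in the result was not tested. Leaving out the TM siATF4-2 library that stood apart left 53 rises and 1 fall, with a median of 0.68.

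The snoRNP genes NOP56 and DKC1 were among the most raised. NOP56 was at 288, 296, 328 and 242 CPM in TM siATF4-2 and at 356, 341, 357 and 302 in TM siATF4-3, against 120 to 129 in TM siCtrl. DKC1, the pseudouridine synthase of H/ACA particles (chromosome X, 153991017 to 154005964, hg19, plus strand), was at 229, 242, 250 and 194 CPM and at 271, 275, 271 and 225, against 95.7 to 99.8. Every ATF4 siRNA library exceeded every TM siCtrl library for both genes, the lowest of each group being replicate 4. The changes were 1.24 ± 0.07 and 1.47 ± 0.07 for NOP56 and 1.23 ± 0.06 and 1.42 ± 0.06 for DKC1 (adjusted p of 5.11e-21 for DKC1 with siATF4-3). FBL rose least of the box C/D genes, by 0.29 and 0.41. NOLC1 was not called with siATF4-2 (log2 0.00) and rose by 0.10 with siATF4-3.

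TCOF1 led the polymerase I genes at 54.9, 58.0, 64.5 and 49.4 CPM in TM siATF4-2 and 57.9, 62.8, 66.1 and 61.3 in TM siATF4-3 (log2 1.22 ± 0.09 and 1.35 ± 0.09). All 8 values lay above the 22.5 to 25.8 of TM siCtrl and below the 69.5 to 95.6 of DMSO siCtrl. The other 6 genes of this role rose by 0.33 (UBTF) to 0.71 (POLR1B) and by 0.35 (UBTF) to 0.99 (POLR1B).

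All 18 small subunit genes rose with both siRNAs. RRP9 had 67.0, 60.9, 78.1 and 57.2 CPM with siATF4-2 and 71.0, 76.9, 80.5 and 70.2 with siATF4-3, against 28.2 to 32.1 in TM siCtrl (log2 1.11 and 1.29). At the other end, RRP12, which tunicamycin had raised, rose further by 0.18 and 0.17. It was at 113, 103, 109 and 111 CPM and at 105, 109, 111 and 110, so that its spread reached down to about the highest TM siCtrl value of 103.

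Of the 18 large subunit genes, 17 rose and GNL3 fell with both siRNAs. BOP1 was at 83.8, 69.3, 87.7 and 65.7 CPM in TM siATF4-2 and at 89.2, 97.3, 98.8 and 89.5 in TM siATF4-3, against 30.2 to 37.1 (log2 1.18 ± 0.08 and 1.48 ± 0.08). GNL3 was at 470, 489, 431 and 511 CPM and at 383, 369, 377 and 380, against 640 to 727 in TM siCtrl. Its decreases of -0.53 ± 0.05 and -0.86 ± 0.05 (adjusted p = 6.65e-12 and 3.23e-18) came without overlap. NOP2, which methylates the large subunit RNA, rose by 1.03 and 1.30. The smallest of the 17 rises was that of WDR12 (0.37 and 0.45).

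NCL was at 1650, 1737, 1696 and 1507 CPM in TM siATF4-2 and at 1865, 1807, 1850 and 1736 in TM siATF4-3. All of these exceeded the TM siCtrl values of 886 to 964 (log2 0.82 and 0.96), and all 4 genes with several functions rose, NPM1 the least by 0.19 and 0.27. MYC had 209, 216, 235 and 223 CPM and 264, 282, 277 and 301, against 130 to 166 in TM siCtrl (log2 0.64 and 0.98). The plots of 8 genes show these levels beside the other groups.

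**Figure D4:**
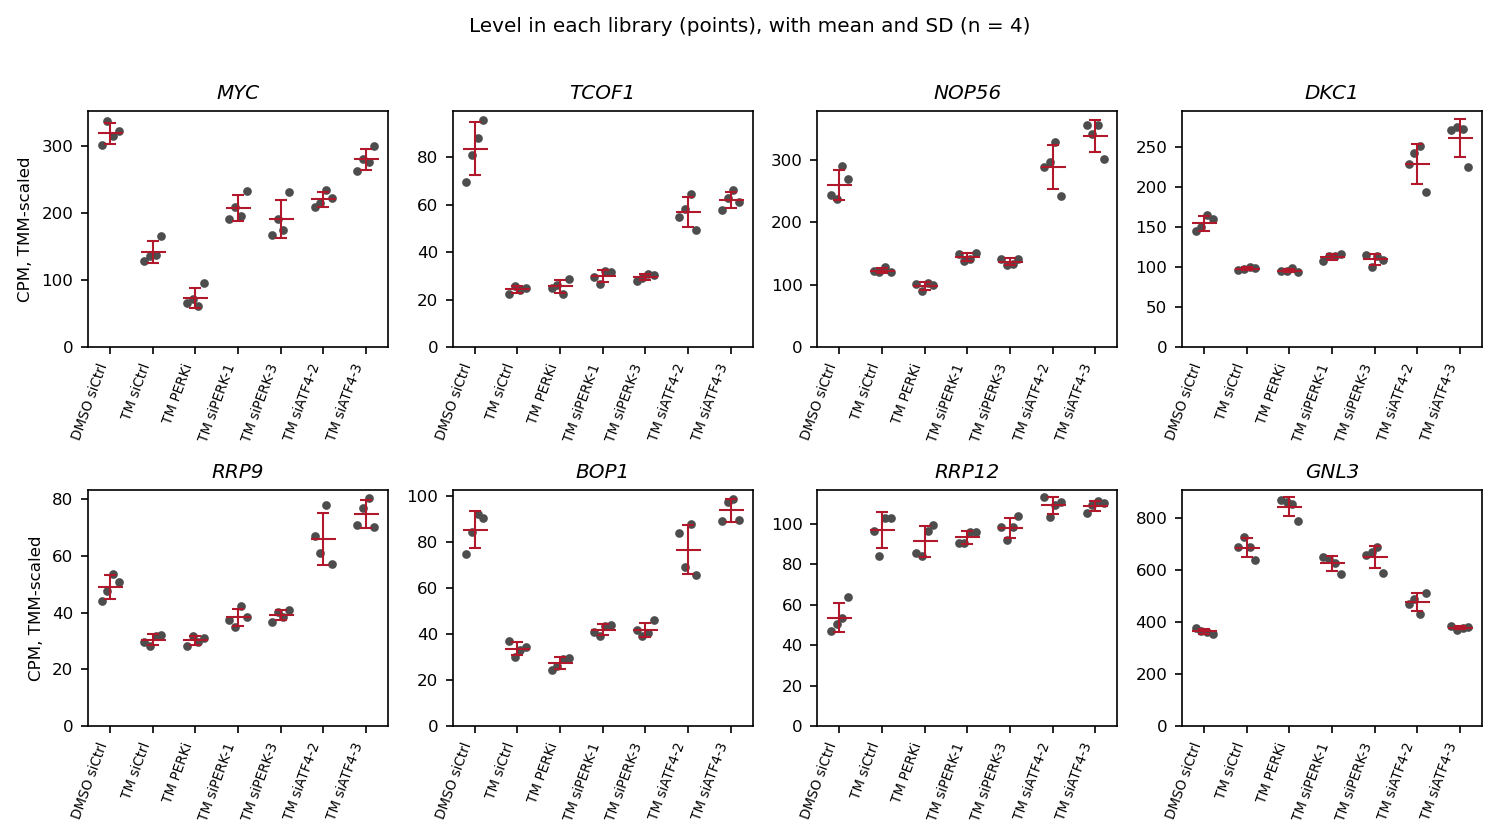
TMM-scaled CPM (y axis, from 0) of 8 genes in the 7 groups (x axis); each point is a library, and red bars give the mean and SD (n = 4). TCOF1, NOP56, DKC1, RRP9 and BOP1 are low in TM siCtrl and higher in both ATF4 siRNA groups, GNL3 is high in TM siCtrl and lower there, and MYC is lowest with the PERK inhibitor.

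Among the other 119 biogenesis genes, 96 rose and 4 fell with siATF4-2, and 93 rose and 8 fell with siATF4-3, with medians of 0.37 and 0.44. CIRH1A, a processome protein, rose by 1.11 and 1.31, and RSL24D1, a late factor of the large subunit, changed by -0.56 and -0.92. Of the 77 ribosomal protein genes 4 rose and 19 fell with siATF4-2, and 18 rose and 14 fell with siATF4-3. RPL13A changed by -0.84 and -0.67. Of 11 MYC partners, 1 rose and 1 fell with siATF4-2, and 3 rose and 2 fell with siATF4-3. MYCL fell with both (-0.32 and -0.71), and MXD1 fell with siATF4-3 only (-0.31). Over all genes tested 28.4% rose and 27.2% fell with siATF4-2, and 31.2% rose and 30.7% fell with siATF4-3. The ribosomal protein genes and the MYC partners lay below these shares in both directions.

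The ATF4 siRNA groups can also be set against libraries other than TM siCtrl. Against DMSO siCtrl, a comparison added after the data were seen, 28 of the 55 genes were higher and 13 lower in TM siATF4-2 (29.7% and 30.0% of all genes tested), with a median of 0.14. In TM siATF4-3, 33 were higher and 4 lower (28.1% and 29.3%), with a median of 0.28. RRP12 was the furthest above DMSO siCtrl in both (log2 1.02 ± 0.07 in each), followed by DKC1 (0.57 and 0.75). GAR1 and DDX18 rose by 0.49 and 0.52 in TM siATF4-2, and NOP2 and DDX21 by 0.68 and 0.65 in TM siATF4-3. TCOF1 stayed below it (-0.56 ± 0.08 and -0.43 ± 0.08), as did FBL (-0.44 and -0.32) and NAT10 (-0.36 and -0.19). NHP2 was the last of the 4 lower in TM siATF4-3 (-0.11, adjusted p = 0.0480). That call was lost without replicate 2 or 4 of DMSO siCtrl (adjusted p = 0.0991 and 0.122), without replicate 2, 3 or 4 of TM siATF4-3 (0.107, 0.0735 and 0.112), and in DESeq2 (0.0641). RLE factors (0.0726), no filter (0.0794) and only the compared groups (0.0511) lost it too. With library totals as scale 8 genes were lower there. MYC was lower in TM siATF4-2 (-0.53, adjusted p = 0.000157) and not called in TM siATF4-3 (-0.19 ± 0.11). GNL3 was higher by 0.38 in TM siATF4-2, and not called in TM siATF4-3 at 0.05 ± 0.05.

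With either siRNA against PERK, a smaller number of the genes rose. In TM siPERK-1, 19 of the 55 rose and 1 fell against TM siCtrl, where 13.1% of all genes tested rose and 13.3% fell. In TM siPERK-3, 21 rose and 0 fell, against 13.1% and 13.7%. Also 0 were lower in TM siPERK-3 at an unadjusted p under 0.05, and 0 fell in DESeq2 and limma-voom. The median log2 changes were 0.12 and 0.14, no gene passed 2-fold, and with library totals as scale 13 rose in TM siPERK-3. Leaving out 1 library gave 15 to 20 rises in TM siPERK-1 and 14 to 22 in TM siPERK-3. The fewest came without replicate 1 of TM siPERK-1 and without replicate 4 of TM siPERK-3. The plot of changes by role shows both groups of points shifted slightly to the right.

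**Figure D5:**
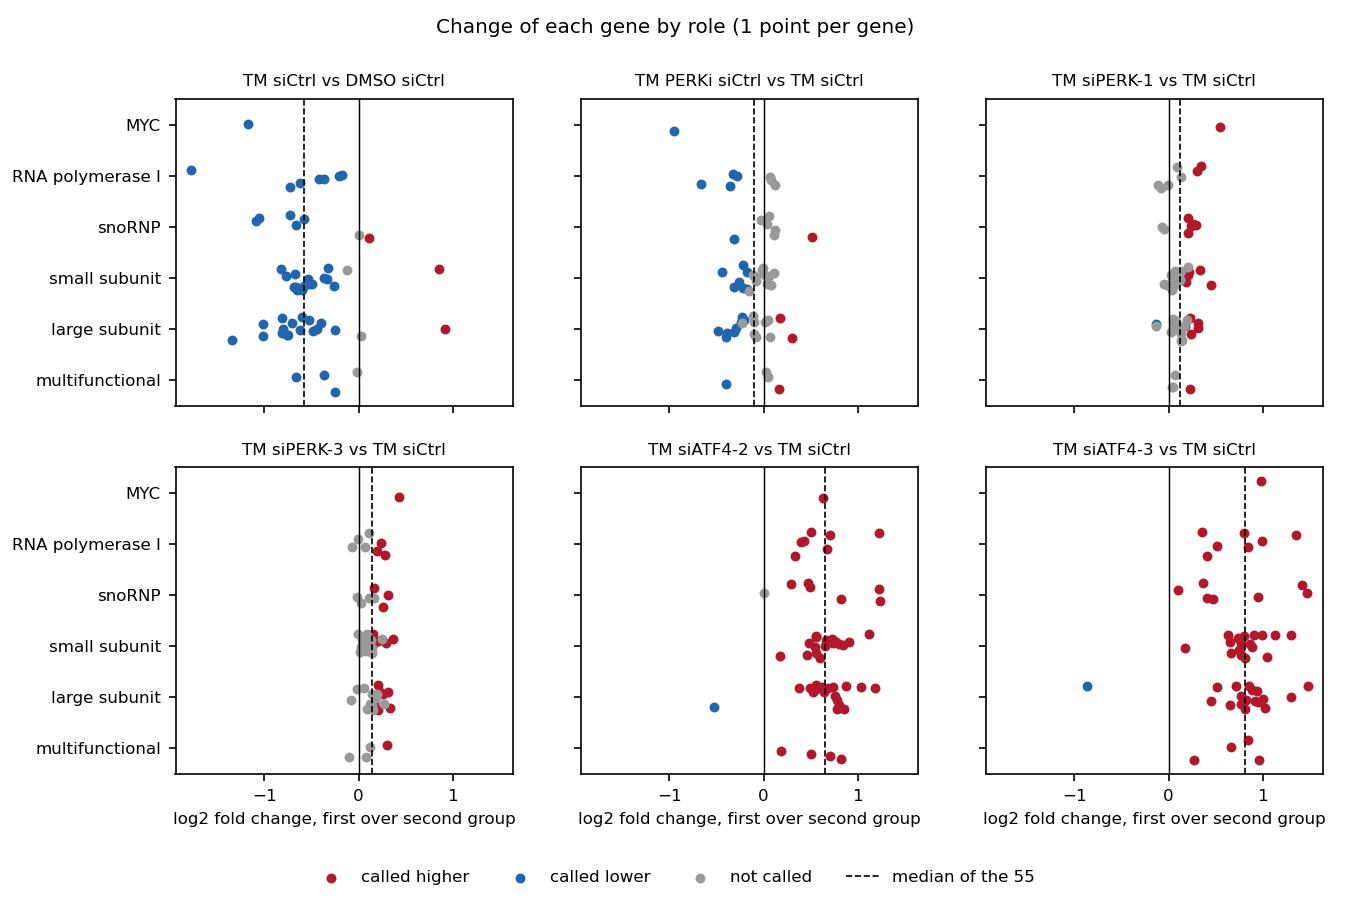
Log2 fold change (x axis) of each of the 55 genes (points) by role (y axis) in 6 comparisons; red points were called higher, blue lower and grey not called, and the dashed line is the median of the 55. The medians were -0.58 with tunicamycin, -0.10 with the inhibitor, 0.12 and 0.14 with the PERK siRNAs and 0.65 and 0.81 with the ATF4 siRNAs.

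MYC rose most with both. It had 192, 210, 196 and 234 CPM in TM siPERK-1 and 168, 192, 176 and 232 in TM siPERK-3, all above the highest TM siCtrl value of 166 (log2 0.55 ± 0.11, adjusted p = 0.000587, and 0.43 ± 0.11, adjusted p = 0.00478). The highest MYC value of TM siCtrl and of both PERK siRNA groups came from replicate 4, and the main fit did not pair replicates. RRP9 rose by 0.33 ± 0.08 and 0.36 ± 0.08, from 28.2 to 32.1 CPM in TM siCtrl to 35.1 to 42.3 and 36.8 to 41.0. The helicase gene DDX10 (0.45 ± 0.09) and POLR1E (0.34 ± 0.06) followed in TM siPERK-1, and DDX18 (0.33 ± 0.06) and NHP2 (0.32 ± 0.05) in TM siPERK-3. By role, 5 of 7 snoRNP genes, 5 of 18 small and 5 of 18 large subunit genes rose in TM siPERK-1, and 3, 6 and 7 in TM siPERK-3. TCOF1 rose by 0.30 and 0.28, BOP1 by 0.31 with either siRNA, and NCL by 0.23 and 0.31. GNL3 was the 1 gene to fall in TM siPERK-1 (-0.13 ± 0.05, adjusted p = 0.0368), with overlapping groups. The call was lost without replicate 1, 2 or 3 of TM siCtrl (adjusted p = 0.0641, 0.150 and 0.0740) or replicate 3 or 4 of TM siPERK-1 (0.0663 and 0.157). Upper-quartile factors lost it too (0.0669).

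Of the other 119 biogenesis genes, 24 rose and 3 fell in TM siPERK-1, and 27 rose and 2 fell in TM siPERK-3. EXOSC1, which tunicamycin had raised, changed by -0.28 and -0.36. Of the 77 ribosomal protein genes 26 rose in TM siPERK-1, and 5 rose and 10 fell in TM siPERK-3. Over all genes tested 13.1% rose and 13.3% fell in TM siPERK-1, and 13.1% rose and 13.7% fell in TM siPERK-3. The ribosomal protein genes in TM siPERK-3 lay below these shares in both directions.

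A direct comparison of the siRNAs against PERK called 1 of the 55 genes higher in TM siPERK-1 and 0 lower (2.24% and 2.49% of all genes tested). At an unadjusted p under 0.05, 4 were higher and 5 lower, DESeq2 called PES1 lower, and limma-voom called 0 lower. FBL was the 1 called gene, at 202, 203, 216 and 204 CPM in TM siPERK-1 and 178, 186, 173 and 189 in TM siPERK-3 (log2 0.18 ± 0.04, adjusted p = 0.00825). Without replicate 3 of TM siPERK-1 its adjusted p was 0.0548. The siRNAs against ATF4 differed more: 21 genes were lower and 1 higher in TM siATF4-2 than in TM siATF4-3 (6.2% and 8.53% of all genes tested). The lower count was 7 without the TM siATF4-2 library that stood apart, and 12 without replicate 2 or replicate 3 of TM siATF4-3. NOP16 (log2 -0.36 ± 0.08), POLR1E (-0.34 ± 0.06), MYC (-0.35 ± 0.11, adjusted p = 0.0324) and BOP1 (-0.29 ± 0.08, adjusted p = 0.00860) were the lowest, and GNL3 was the higher one (0.33 ± 0.05). Without the library that stood apart MYC and BOP1 were no longer called (adjusted p = 0.0652 and 0.0512). MYC also lost its call without replicate 1 or 2 of TM siATF4-2 (0.0831 and 0.0773), without replicate 2, 3 or 4 of TM siATF4-3 (0.0676, 0.0614 and 0.0888) and with no filter (0.0558). ATF4 itself averaged 237 CPM in TM siATF4-2 and 114 in TM siATF4-3, and the part of that difference in the result was not tested.

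Set against each other without the control siRNA libraries, the ATF4 siRNA groups stood above the PERK siRNA groups. Averaged over both siRNAs of each target, 54 genes were higher and GNL3 was lower (31.6% and 32.3% of all genes tested), with a median log2 difference of 0.57. NOP56 (1.15 ± 0.05), DKC1 (1.14 ± 0.04), NOP2 (1.04 ± 0.05) and BOP1 (1.02 ± 0.06) led, all with adjusted p of 8.75e-17 or smaller. GNL3 averaged 426 CPM with the ATF4 siRNAs and 637 with the PERK siRNAs (log2 -0.59 ± 0.04). For MYC the difference was 0.32. Without the library that stood apart the count was again 54 and 1. Of the other biogenesis genes 96 of 119 were higher and 6 lower. Relative to the solvent libraries, ATF4 was depleted further by its siRNAs than EIF2AK3 by the PERK siRNAs. The part of that difference in the result was not tested.

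With the PERK inhibitor more of the genes fell than rose. In TM PERKi siCtrl, 22 of the 55 genes fell and 4 rose against TM siCtrl, where 17.5% of all genes tested fell and 18.2% rose, and the median log2 change was -0.10. MYC fell most, from 130 to 166 CPM in TM siCtrl to 66.4, 71.5, 60.9 and 95.5 (log2 -0.95 ± 0.11, adjusted p = 6.89e-07). UBTF, which opens ribosomal DNA for the polymerase, had 93.6, 90.8, 93.5 and 92.5 CPM in TM siCtrl and 60.3, 57.1, 57.1 and 59.5 with the inhibitor (log2 -0.66 ± 0.05, adjusted p = 1.10e-13). Both genes' groups were clearly separate. BYSL fell from 16.2 to 16.6 CPM to 12.5, 12.5, 11.2 and 12.3 (log2 -0.44 ± 0.09). PPAN was called lower at about 2 to 4 CPM with overlapping groups (-0.48 ± 0.19, adjusted p = 0.0473). It lost its call with RLE factors, DESeq2 and limma-voom (adjusted p = 0.0546, 0.0532 and 0.0690) and without replicate 1, 3 or 4 of either group (0.0642, 0.117 and 0.0973 for TM siCtrl, 0.146, 0.118 and 0.0707 for TM PERKi siCtrl), and most of its exons overlap the PPAN-P2RY11 readthrough gene.

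Another 3 polymerase I genes fell with the inhibitor: POLR1B (-0.35), POLR1C (-0.33) and POLR1A (-0.28). TCOF1 was not called (0.07 ± 0.09 with 24.95, 26.2, 22.2 and 28.8 CPM). Of the snoRNP genes NOP56 fell (-0.32), NOLC1 rose and 5 were not called. Of the subunit genes 7 small and 8 large ones fell, and so did MYBBP1A (-0.39). NOLC1 had 609, 622, 620 and 614 CPM with the inhibitor, against 423 to 453 in TM siCtrl and 388 to 418 in DMSO siCtrl (log2 0.51 ± 0.04, adjusted p = 2.60e-13). GNL3 had 869, 861, 853 and 788 CPM, above the 640 to 727 of TM siCtrl (0.30 ± 0.05), and was highest in this group. DDX21 and DDX18 rose by 0.16 ± 0.04 and 0.17 ± 0.06. DDX18 was not called without replicate 1 of TM siCtrl (adjusted p = 0.1), without replicate 2 of TM PERKi siCtrl (0.0510) or with library totals (0.111). Outside the 55 genes, 21 of 119 other biogenesis genes rose, among them EXOSC8 (0.46) and NMD3 (0.44), and 17 fell, among them NOL6 (-0.39). Their median log2 change was 0.01. Of 77 ribosomal protein genes 17 fell. Over all genes tested 18.2% rose and 17.5% fell, so the other biogenesis genes stayed near the shares of all genes. Among MYC partners MXD1 rose by 0.81 and MNT changed by -0.41.

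Tested directly, the inhibitor group lay below the mean of the PERK siRNA groups in 41 of the 55 genes and above it in 3 (26.1% and 25.8% of all genes tested), with a median difference of -0.26. MYC averaged 73.5 CPM with the inhibitor and 200 with the siRNAs (log2 -1.44 ± 0.10, adjusted p = 6.16e-11). BOP1 (-0.60 ± 0.08), BYSL (-0.57 ± 0.08) and UBTF (-0.57 ± 0.05) followed. NOLC1 (0.55 ± 0.03) and GNL3 (0.40 ± 0.04) were higher. DDX21 was called at 0.09 ± 0.04 (adjusted p = 0.0486), with overlapping groups. It lost the call without any 1 of the 4 inhibitor libraries (0.0662 to 0.103) and without replicates 2, 3 or 4 of either PERK siRNA group (0.0572 to 0.0916). The call was also lost with upper-quartile factors (0.0824), library totals (0.183) and no filter (0.0901). Cells of the inhibitor group kept the EIF2AK3 transcript (120.2 to 130.5 CPM) and carried the control siRNA, so agent and siRNA changed together in this comparison.

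Ordered by group means over the 6 groups with tunicamycin, 50 of the 55 genes were highest in TM siATF4-3, 3 in TM siATF4-2 and 2 in TM PERKi siCtrl. The lowest mean was in TM PERKi siCtrl for 35 genes and in TM siCtrl for 15. The summed level of the 55 genes was 6871 to 6964 CPM with the inhibitor. With siPERK-1 it was 7166 to 7298 and with siPERK-3 7075 to 7337. The sum reached 8721 to 9648 with siATF4-2 and 9611 to 10370 with siATF4-3. The inhibitor range overlapped that of TM siCtrl, the PERK siRNA ranges overlapped each other, and those of the ATF4 siRNAs overlapped through replicate 4 of TM siATF4-3 at 9611. Such sums weigh abundant genes most. Without NCL and NPM1 they were 4323 to 4514 CPM in TM siCtrl and 4474 to 4545 with the inhibitor. The sum was thus not lower with the inhibitor, although more genes fell than rose there.

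Per kilobase of exon, the level in DMSO siCtrl was highest for NPM1 (944 ± 54 CPM per kb, SD, n = 4), NCL (544 ± 15) and FBL (239 ± 13), which are abundant proteins of the nucleolus. GNL3 (170 ± 5), NHP2 (163 ± 4) and MYC (135 ± 6) came next. TCOF1 (13.9 ± 1.9) and RRP12 (12.1 ± 1.6) were low and did not differ beyond their spread, and PPAN was the lowest (3.05 ± 0.27).

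Some of the counts cannot be assigned to 1 gene. The exons of 14 of the 55 genes overlap another gene in the deposited models, by most in HEATR1 (2095 bases with LGALS8), PPAN (1513 with PPAN-P2RY11), TSR1 (1146 with SRR) and MYBBP1A (1038 with SPNS2), and the use of strand in the counting is not given in the sources used here. Genes for snoRNAs lie inside 8 of the 55, among them 5 in NOP56, 3 each in NOP58, GNL3 and NCL and 2 in DKC1. With tunicamycin GNL3 rose and the other 7 hosts (NOP56, NOP58, DKC1, WDR43, TSR1, PPAN and NCL) fell, much like the whole set, in which 48 of 55 fell.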

How the data were processed

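RNA was sequenced from 28 LNCaP libraries in 7 groups of 4. The authors deposited raw read counts per gene in 6 tables; DESeq2 1.10.1, featureCounts 1.5.0-p1, TopHat2 2.1.0 and build hg19 are listed per the submitters' processing notes, with settings and annotation not given in the sources used here. Exon lengths in bases (another measure, neither a count nor a level) are the authors' deposited values. The 20 control columns repeated between tables held 0 differing values and were used once, and 1 unnamed line (0 counts) was dropped. Per the labels' protocols the libraries were strand-specific.

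Counts were filtered (filterByExpr, minimum count 10, minimum total 15), TMM-scaled and fitted in edgeR 4.0.16 (R 4.3.3), with robust quasi-likelihood F-tests, two-sided, and all libraries in 1 group-means fit. Benjamini-Hochberg adjustment ran over 14314 genes in each of 12 comparisons. The SE is |log2 change| over the root of F. Comparisons with the mean of 2 siRNA groups weighted each by 0.5. On simulated counts for these libraries the fit was tested with known changes. The 55 genes, their roles and the other lists were chosen with earlier results of these data known. Named were MYC, the 3 genes per role with the largest tunicamycin effect, and up to 4 called genes each way in other comparisons; GNL3 and NOLC1, the other risers, and further genes named singly were chosen after their values were seen. Alternatives were other scalings, no filter, DESeq2 1.42.0, limma-voom (limma 3.58.1), only the compared groups, a replicate block and leaving out each library. Replicates are repeated cultures of 1 cell line, and p-values measure the spread between them.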

Additional observations from a re-analysis of the deposited data

Results flagged for a closer look

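For 21 genes given library by library, each group of 4 was checked for a library whose gap to its nearest neighbour took up more than 0.829 of the group's range (Dixon's test). Of 147 groups, 9 held such a library, and chance alone flags about 1 in 20. NOP56 was high in replicate 3 of TM siCtrl (128.9 CPM, others 120.1 to 121.5), and BRIX1 in replicate 3 of DMSO siCtrl (84.29 CPM, others 77.48 to 78.32). With the inhibitor, NAT10 was high in replicate 4 (53.94 CPM, others 48.95 to 49.62) and MRTO4 in replicate 3 (19.86 CPM, others 17.56 to 17.85). MYBBP1A was high in replicate 4 of TM siPERK-3 (96.23 CPM, others 79.29 to 81.48). FBL was low in replicate 2 of TM siATF4-2 (191.6 CPM, others 209.5 to 213.0), and BYSL in replicate 1 of TM siATF4-3 (23.96 CPM, others 28.82 to 29.24). NOLC1 was low in replicate 1 of TM siATF4-2 (418.7 CPM, others 437.7 to 441.5), and DKC1 in replicate 4 of TM siATF4-3 (224.6 CPM, others 271.2 to 275.0).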

How the results depend on the processing

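Of 1332 alternative values for 79 changes of single genes, 1280 kept their direction and side of the threshold, 51 lost their call and 1 reversed (NOLC1 with tunicamycin, to -0.0322 with library totals, adjusted p = 0.468). Upper-quartile factors gave 0 genes lower in TM siPERK-1 against TM siCtrl and 2 higher in TM siPERK-1 against TM siPERK-3. Library totals gave 2 lower in TM siPERK-1, 13 higher and 1 lower in TM siPERK-3, 2 higher in TM siPERK-1 against TM siPERK-3, and 8 lower in TM siATF4-3 against DMSO siCtrl. In TM siPERK-1 against TM siPERK-3, 1 gene was lower with RLE factors, with DESeq2 and with only the compared groups. Leaving out 1 library, the count lower was 0 to 1 in TM siPERK-1, and 7 to 25 in TM siATF4-2 against TM siATF4-3; between the PERK siRNAs 0 to 2 were higher and 0 to 2 lower. The cause was not tested.

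Library totals moved the median of all genes with tunicamycin from 0.01 to -0.13 and that of the 55 from -0.58 to -0.72; relative to all genes the 55 were at -0.59 under both. They moved the share of calls that were higher from 49.7% to 37.5% with tunicamycin, from 50.9% to 36.3% with the inhibitor, from 49.5% to 62.0% for the ATF4 against the PERK siRNAs, and from 49.8% to 39.3% in TM siATF4-2 against DMSO siCtrl. Upper-quartile factors moved it from 47.4% to 60.1% between the PERK siRNAs.

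Replicate numbers were not treated as pairing the libraries: of 84 same-number pairs, 31 had deviations correlated above 0.1 (range -0.01 to 0.30), and 0 of 21 group pairs had all above it. In 73 of the 84 pairs, however, the same-number library was the best match among the 4 of its group. The numbers may thus mark the 4 experiments of the design text, and the main fit leaves such pairing out. With the replicate block, 1 gene was lower in TM siPERK-3 against TM siCtrl, 2 were higher and 1 lower in TM siPERK-1 against TM siPERK-3, and 31 were lower in TM siATF4-2 against TM siATF4-3 (21 without it); tunicamycin gave 49 lower and 3 higher. At 10794637 to 17253801 counts per library, depth limits PPAN (about 2 to 8 CPM) most.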
